A study of Mus musculus with 18 samples.

Results

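Importins carry proteins into the nucleus, and the Ran system sets the direction of that transport. Here 9 of its genes were followed among the 17198 genes measured in cultured mouse dorsal root ganglion (DRG) neurons. They were taken from the deposited gene table by symbol: importin β (Kpnb1), 5 importin α genes (Kpna1, Kpna2, Kpna3, Kpna4 and Kpna6), the GTPase Ran, and its regulators Ranbp1 and Rangap1. All 9 were found and all 9 passed the filter on low values. DRG neurons are the sensory neurons that send axons from beside the spinal cord to the skin, muscle and organs. Cultures came from wild-type mice (WT) or from heterozygous mice (HET), whose genotype is Dynlrb1(tm1a/+), that is, 1 tm1a allele beside 1 normal copy of a dynein light chain gene. A tm1a allele is a targeted insertion that interrupts its gene in every cell that carries it, so it is not limited to neurons. RNA was sequenced after 12, 24 and 48 h in culture, from 3 cultures per genotype at each time, 18 cultures and 6 groups in all, and ages, sexes and culture additives are not given in the sources used here. The design text calls the 3 cultures of a group biological repeats, and does not say whether they came from separate animals.

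An importin α protein binds the nuclear localization signal of a cargo, importin β binds importin α and docks the complex at the nuclear pore, and RanGTP in the nucleus releases the cargo. In the cytoplasm RanGAP1, helped by RanBP1, makes Ran hydrolyse its GTP. Sensory axons are known to hold importin α on dynein far from the nucleus. After injury, local translation of importin β and RanBP1 lets the importins bind signalling proteins, which dynein then carries back to the cell body.

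Among the members, the clearest change was with time: Kpnb1 and Ranbp1 rose by 48 h in WT cultures, by 1.502-fold and 1.84-fold. In HET cultures the rises were 1.27-fold and 1.44-fold. Their calls were kept in 5 and 14 of 18 fits that each left out 1 culture. Kpna6 and Rangap1 rose by less from 12 to 48 h in WT, and Kpna2 and Kpna3 fell from 24 to 48 h in WT. The calls of Rangap1, Kpna2 and Kpna3 were kept in 15, 14 and 12 of 18 such fits. That of Rangap1 was also lost when cultures of the same genotype and number were joined across times. Deviations of such cultures from their group means correlated at only -0.093 to 0.204 between 12 and 48 h. Over all genes 30% passed as higher from 12 to 48 h in WT, and 10.3% as lower from 24 to 48 h in WT. In the fit without pairing, none of the 9 genes differed between HET and WT at any time past an adjusted p of 0.05. Of all genes 0.00581% did at 12 h, 0.00581% at 24 h and 0% at 48 h. Dynlrb1 itself passed that threshold in this fit at 24 h but not at 12 or 48 h. When HET and WT cultures of the same number were paired, it passed at 12 and 48 h but not at 24 h. At 48 h all HET values of Kpnb1 and Ranbp1 lay below all WT values, where HET and WT did not overlap for 24% of all genes. The call of either difference depended on whether cultures of the same number were paired and on 1 HET culture.

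The importin α genes are close relatives, which bears on whether reads of 1 can be taken for another. Kpna3 and Kpna4 were the closest pair, with 74.97% identity over their coding sequences, followed by Kpna1 and Kpna6 with 73.92% over ungapped positions. The first 60 coding bases of that closest pair, read from the GENCODE transcripts of GRCm38, show how often they differ, and the 17 bases that differ are in capitals.
Kpna3: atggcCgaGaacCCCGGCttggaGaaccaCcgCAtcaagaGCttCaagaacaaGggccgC
Kpna4: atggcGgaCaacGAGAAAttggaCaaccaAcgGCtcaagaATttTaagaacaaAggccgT
No stretch of 50 coding bases of Kpna1, Kpna3, Kpna4, Kpna6 or Kpnb1 recurred in another annotated gene. In contrast, 95.65% of such stretches of Kpna2 recurred in 12 other genes of the annotation, most with the provisional names given to predicted loci, and 60.8% of those of Ran recurred in 3. For Ranbp1 the share was 44.76%, in 2 other genes, and for Rangap1 0.29%, in 1. How reads matching several genes were counted is not given in the sources used here, so values of Kpna2, Ran and Ranbp1 carry that uncertainty. Of these copies only Rasl2-9, a copy of Ran, was in the table, with normalized counts of 1.89 to 12.2.

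Promoters are shown for the members that moved most, the risers Kpnb1 and Ranbp1 and the falling Kpna2. Each is the 250 bases before the start in RefSeq (GRCm38.p6), and capitals mark matches to 4 motifs searched on both strands: CCAAT, the GC box GGGCGG, the E2F-like TTTNNCGC and the CHR element TTTGAA.
Kpnb1, chr11:97187893-97188142, minus strand: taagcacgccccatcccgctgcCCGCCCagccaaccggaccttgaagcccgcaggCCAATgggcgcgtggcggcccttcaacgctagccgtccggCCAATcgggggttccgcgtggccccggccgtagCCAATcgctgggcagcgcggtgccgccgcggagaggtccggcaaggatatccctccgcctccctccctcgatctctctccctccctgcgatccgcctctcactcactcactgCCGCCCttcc
Ranbp1, chr16:18248695-18248944, minus strand: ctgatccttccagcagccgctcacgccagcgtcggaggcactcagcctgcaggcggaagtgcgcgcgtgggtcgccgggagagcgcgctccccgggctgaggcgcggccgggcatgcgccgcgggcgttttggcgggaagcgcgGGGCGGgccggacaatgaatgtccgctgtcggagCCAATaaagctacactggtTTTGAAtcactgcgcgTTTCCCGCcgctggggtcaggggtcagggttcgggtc
Kpna2, chr11:106999526-106999775, minus strand: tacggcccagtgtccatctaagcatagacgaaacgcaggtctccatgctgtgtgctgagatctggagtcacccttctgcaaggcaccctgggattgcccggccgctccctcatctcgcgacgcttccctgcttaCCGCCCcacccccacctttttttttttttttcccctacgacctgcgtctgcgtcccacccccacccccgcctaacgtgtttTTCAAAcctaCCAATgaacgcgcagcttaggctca
The Kpnb1 window held 3 CCAAT and 2 GC box matches, and no E2F-like or CHR match. In the Ranbp1 window each of the 4 motifs matched 1 time. The Kpna2 window held 1 match each to CCAAT, the GC box and the CHR element. Among 32851 promoter windows of the same length, 33.8% held CCAAT, 32.7% the GC box, 4.28% the E2F-like motif and 16% the CHR element. A match describes letters in the window and is not evidence of a bound factor.

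The labels held up for the targeted gene: HET cultures held 2716 to 4087 normalized counts of Dynlrb1 and WT cultures 5229 to 6674, without overlap. Column totals of the normalized counts were nearly equal, from 41509705 to 41509874, so the sequencing depth is unknown and the precision of each value rests on the spread between cultures. Sensory neuron markers were abundant in every culture, with a summed normalized count of 379097 to 538505 over 10 genes. Markers of other cells were present as well, with no marker gene at 0: 36727 to 53226 for 8 Schwann cell and satellite glia genes, 4878 to 27597 for 6 fibroblast genes, 973 to 3537 for 6 macrophage genes and 4022 to 10662 for 5 endothelial genes. The cultures are mixtures, so more cells of a type and more RNA per cell cannot be told apart. Of the HET 48 h cultures, number 3 stood apart. Its log2 values correlated with those of cultures 1 and 2 at r = 0.978 and 0.984 across genes, while 1 and 2 correlated at 0.990. In that culture Kpnb1 was 0.713 times and Ranbp1 0.729 times the mean of the other two, and the sum of 9 proliferation markers was 2681 against 5973 and 4798. The WT 48 h culture numbered 3 was also the lowest of its group in these values. It had 18076 counts of Kpnb1, 5103 of Ranbp1 and a proliferation marker sum of 5180.

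Per transcript length, in deposited FPKM, Rangap1 had the highest mean level over the 18 cultures at 137 ± 7.22 (SD, n = 18), and Kpna2 the lowest at 6.96. Between them lay Ranbp1 at 109, Ran at 67.0, Kpnb1 at 61.5, Kpna1 at 40.3, Kpna4 at 30.5, Kpna3 at 30.03 and Kpna6 at 18.3 FPKM. Kpna3 and Kpna4 overlapped in their ranges in every group, so their order is not resolved. Ran and Kpnb1 overlapped in WT at 12 and 24 h and in HET at 48 h. The order of the means changed in WT cultures at 48 h. There the Ranbp1 mean of 153 ± 12.0 FPKM (SD, n = 3) stood above the Rangap1 mean of 143 FPKM, with overlapping ranges. There the Kpnb1 mean of 80.8 FPKM also stood above the Ran mean of 70.9 FPKM. Kpna2, the least abundant importin α, made up 4.44% to 6.97% of the summed importin α FPKM, as means of the 6 groups.

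**Figure D1:**
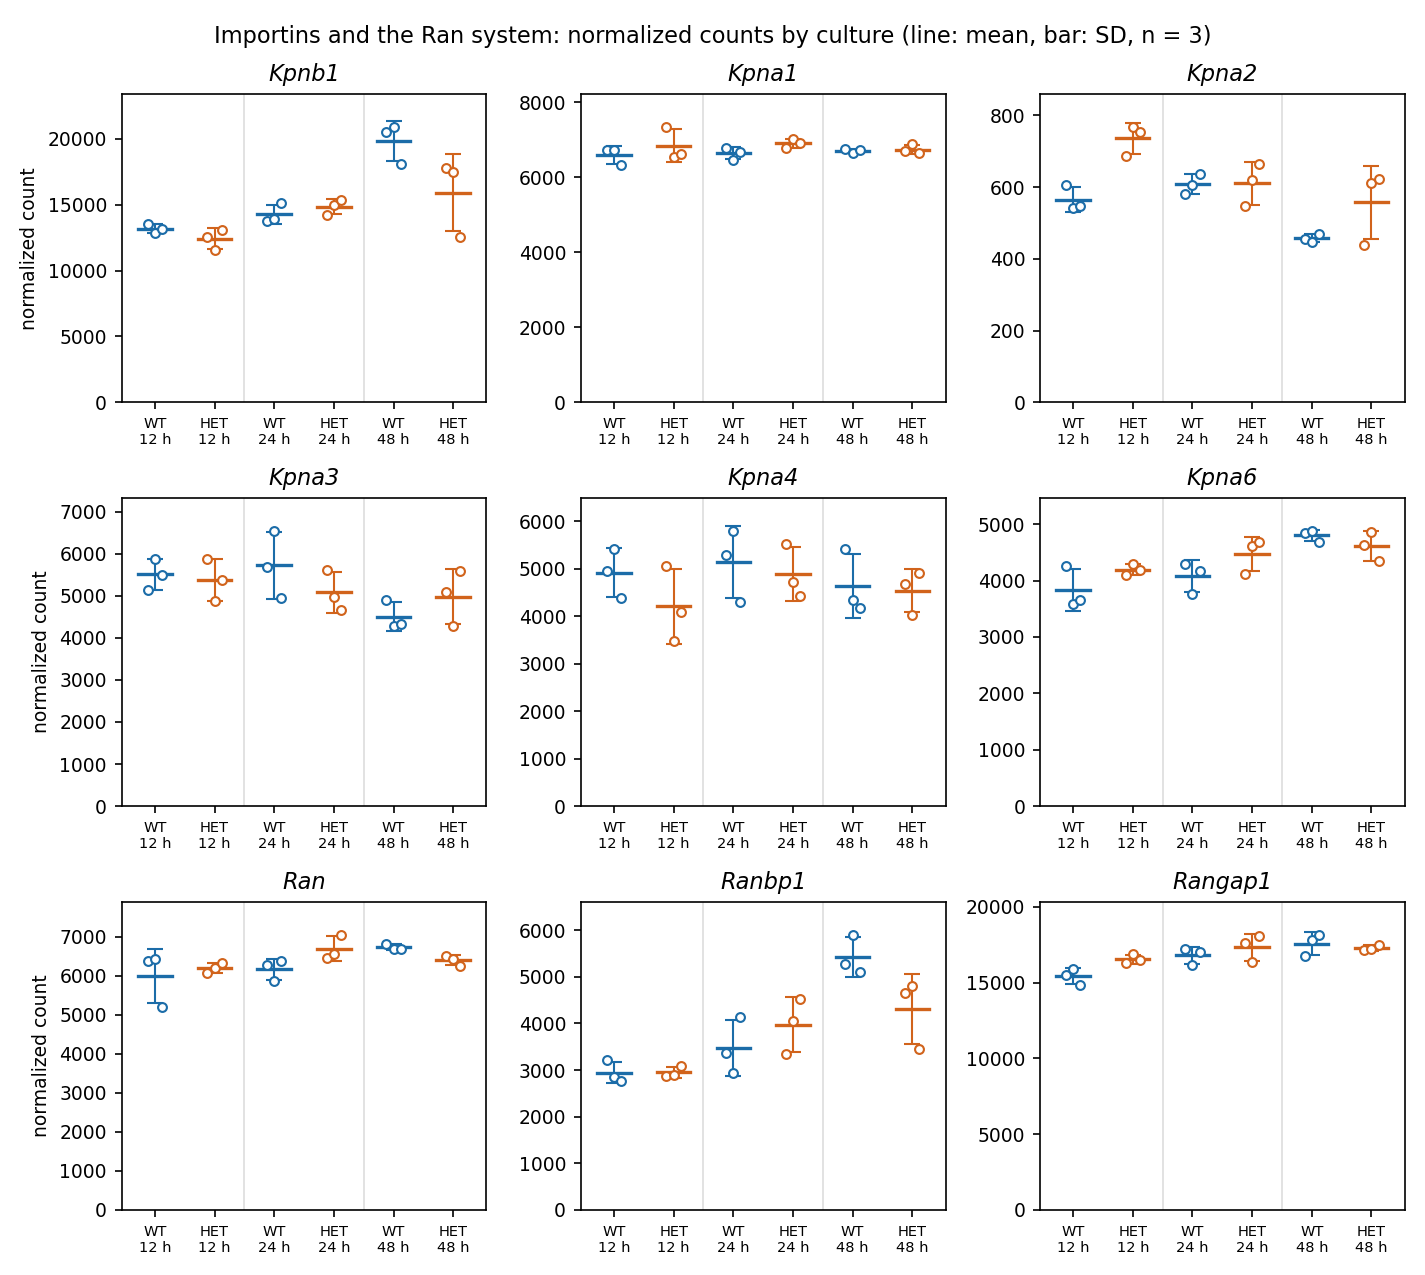
Normalized counts of the 9 genes, 1 panel a gene, with a point for each culture, a line for the mean and a bar for the SD of 3 cultures, WT in blue and HET in orange. Kpnb1 and Ranbp1 are highest in WT at 48 h, Kpna2 is highest in HET at 12 h, and the HET 48 h culture numbered 3 is the low point of its group for Kpnb1 and Ranbp1.

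Kpnb1 encodes importin β (ENSMUSG00000001440, chr11:97159714-97187881, minus strand, GRCm38). In WT its normalized counts in cultures 1, 2 and 5 were 13515, 12834 and 13184 at 12 h and 13747, 13929 and 15124 at 24 h. At 48 h they were 20501, 20896 and 18076 in WT cultures 1, 2 and 3. Every WT culture at 48 h lay above every culture at 12 and 24 h. The rise from 12 to 48 h in WT was 0.59 on the log2 scale (SE 0.11), 1.502-fold, with a limma adjusted p of 4.41e-04 (Benjamini-Hochberg over all genes). From 24 to 48 h in WT it was 0.47 (SE 0.11; limma adjusted p = 0.00625). From 12 to 24 h in WT the difference was 0.11 (SE 0.11), which did not pass the threshold (limma adjusted p = 0.588).

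In HET the Kpnb1 counts were 12573, 11569 and 13106 at 12 h, 14227, 15013 and 15329 at 24 h, and 17751, 17456 and 12555 at 48 h. Cultures 1 and 2 at 48 h lay above all HET cultures at 24 h, and culture 3 lay among the 12 h values. Kpnb1 rose from 12 to 48 h in HET by 0.34 on the log2 scale (SE 0.11; limma adjusted p = 0.0442), and by 0.51 without HET 48 h culture 3 (limma adjusted p = 5.81e-04). That call was also kept without WT 12 h culture 5, WT 48 h culture 2 or 3, or HET 24 h culture 1, and was lost without any of the other 13 cultures (limma adjusted p up to 0.211). From 12 to 24 h in HET the difference was 0.26 (SE 0.11; limma adjusted p = 0.103), past the threshold without HET 48 h culture 3 (limma adjusted p = 0.0188) or with the number as a block (0.0191). On the deposited columns without the authors' last scaling, the HET rise from 12 to 48 h was 0.24 (limma adjusted p = 0.113), and after quantile normalization it was 0.40 (0.0501).

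Comparing genotypes, Kpnb1 in HET differed from WT by -0.09 at 12 h (95% interval -0.32 to 0.14) and by 0.06 at 24 h (-0.17 to 0.29) on the log2 scale. At 48 h the difference was -0.33 (SE 0.11), 0.795-fold, and it did not pass the threshold (limma adjusted p = 0.0963). The groups did not overlap, as was so for 24% of all genes. Cultures of the same number deviated together between genotypes at 48 h, and with the number as a block the same difference had a limma adjusted p of 0.0158. Without HET 48 h culture 3 the difference was -0.17 (limma adjusted p = 0.453), and -0.23 with the block as well (limma adjusted p = 0.123). Without HET 48 h culture 1 it was -0.42 (limma adjusted p = 0.0499).

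Ranbp1, the cofactor of RanGAP1 in GTP hydrolysis (listed with the pair of IDs ENSMUSG00000005732 and ENSMUSG00000099164; the first is at chr16:18239784-18248732, minus strand), had the largest rise among the members. WT counts were 3210, 2853 and 2775 at 12 h, 3361, 2946 and 4131 at 24 h, and 5265, 5903 and 5103 at 48 h. The WT cultures at 48 h lay above all other WT cultures. From 12 to 48 h in WT the rise was 0.88 on the log2 scale (SE 0.14), 1.84-fold (limma adjusted p = 1.46e-04). The rise from 24 to 48 h in WT was 0.65 (SE 0.14; limma adjusted p = 0.00491).

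HET counts of Ranbp1 were 2875, 2889 and 3094 at 12 h, 3347, 4046 and 4524 at 24 h, and 4653, 4813 and 3452 at 48 h. All HET cultures at 24 and 48 h lay above those at 12 h, and culture 3 at 48 h lay among the 24 h values. Ranbp1 rose from 12 to 48 h in HET by 0.53 (SE 0.14; limma adjusted p = 0.0242), and by 0.68 without HET 48 h culture 3 (limma adjusted p = 0.00182). This call was lost without HET 12 h culture 1 or 2 or HET 48 h culture 1 or 2 (limma adjusted p up to 0.121). Already from 12 to 24 h in HET it rose, by 0.42 (SE 0.14; limma adjusted p = 0.0453). That call was kept in 9 of 18 fits that each left out 1 culture, and was lost without any HET 12 h culture, HET 24 h culture 2 or 5, WT 12 h culture 2, WT 24 h culture 1, or WT 48 h culture 1 or 3 (limma adjusted p up to 0.184).

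Between genotypes, Ranbp1 in HET differed from WT by 0.01 at 12 h (95% interval -0.29 to 0.30) and by 0.19 at 24 h (-0.10 to 0.49). At 48 h every HET value lay below every WT value, where 24% of all genes had no overlap between genotypes. The 48 h difference was -0.35 (SE 0.14), 0.787-fold, short of the threshold (limma adjusted p = 0.162). With the number as a block the limma adjusted p was 0.0491. Without HET 48 h culture 3 the difference was -0.19 (limma adjusted p = 0.627), or -0.24 with the block as well (limma adjusted p = 0.309).

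Proliferation markers moved with these values. The summed normalized count of 9 such genes, among them Mki67, Top2a and Cdk1, was 2185 to 2483 in WT at 12 h, 2296 to 2680 at 24 h, and 7830, 6752 and 5180 at 48 h. In HET it was 1988 to 2375 at 12 h, 2643 to 2969 at 24 h and 5973, 4798 and 2681 at 48 h. All 9 passed the test as higher at 48 than at 12 h in WT, where 30% of all genes did. In HET 8 of 9 did, where 10.6% of all genes did. Between genotypes at 48 h 0 of 9 passed, beside 0% of all genes. There 5 had an unadjusted p below 0.05 in limma, beside 3782 of all 17198 genes. The median of the 9 was -0.75 on the log2 scale, against -0.03 over all genes. Fibroblast marker sums were 4878 to 11608 in WT at 12 h and 17195 to 27597 at 48 h. In HET at 48 h they were 26305, 16919 and 12670, and the same culture, number 3, was the lowest. Of these markers Pdgfra passed as lower from 24 to 48 h in both genotypes. The neuron, glia and endothelial sums of HET 48 h culture 3, at 444395, 43875 and 6797, were the highest of its group. Its macrophage sum, 1494, lay between those of the other cultures. The part of dividing or other non-neuronal cells in the Kpnb1 and Ranbp1 differences was not tested.

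**Figure D2:**
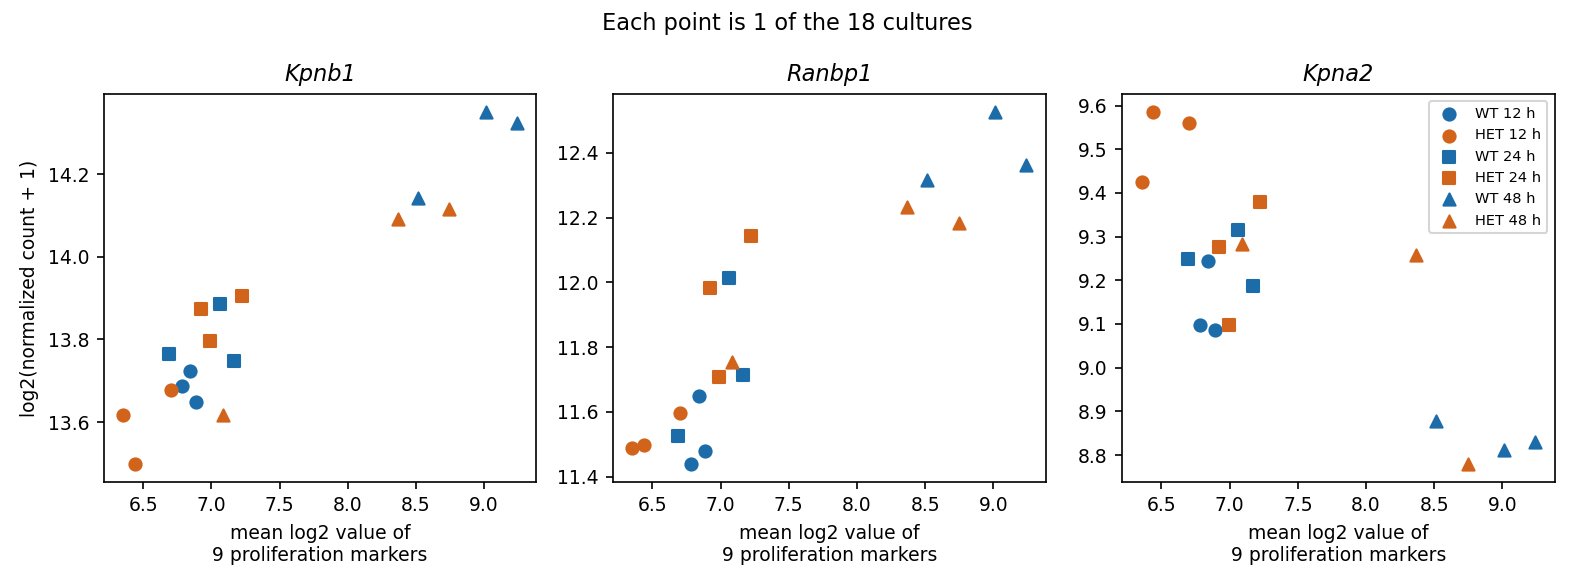
Log2 of the normalized count plus 1 of Kpnb1, Ranbp1 and Kpna2 against the mean log2 value of 9 proliferation markers in the same culture; each point is 1 of 18 cultures, colour gives genotype and shape gives time. The 48 h cultures lie to the right, apart from HET culture 3, which lies beside the 24 h cultures; Kpnb1 and Ranbp1 are high on the right, and Kpna2 is low there except in HET 48 h culture 2.

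Kpna2 (ENSMUSG00000018362, chr11:106988629-106999541, minus strand) encodes an importin α that is typical of dividing and stem cells. Its counts in WT were 605, 543 and 547 at 12 h, 582, 607 and 636 at 24 h, and 454, 448 and 469 at 48 h. In HET they were 686, 768 and 754 at 12 h, 547, 619 and 665 at 24 h, and 438, 612 and 622 at 48 h. Kpna2 fell from 24 to 48 h in WT by 0.41 on the log2 scale (SE 0.13; limma adjusted p = 0.0247), and the groups did not overlap. The call was lost without WT 24 h culture 2 or 5 or WT 48 h culture 1 or 2 (limma adjusted p up to 0.0786). It fell from 12 to 48 h in HET by 0.42 (SE 0.13; limma adjusted p = 0.0389), a call lost without WT 24 h culture 1, any HET 12 h culture, or HET 48 h culture 1 or 2 (limma adjusted p up to 0.212). In WT the value from 12 to 48 h was -0.30 (limma adjusted p = 0.0586), past the threshold without HET 48 h culture 1 (0.0226) or 3 (0.0457). It was -0.41 on the columns without the authors' last scaling (limma adjusted p = 0.0113) and -0.51 after quantile normalization (0.0064).

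At 12 h every HET culture had more Kpna2 than every WT culture, where 15.1% of all genes had no overlap between genotypes. The Kpna2 difference was 0.38 on the log2 scale (SE 0.13), 1.30-fold, and did not pass the threshold (limma adjusted p = 0.577). At 24 h the difference was 0.00 (95% interval -0.27 to 0.27), and at 48 h it was 0.27 (SE 0.13; limma adjusted p = 0.227). HET 48 h culture 1, at 438, was the lowest of all 18, and without it the 48 h difference was 0.43 (limma adjusted p = 0.0468). Averaged over the 3 times, Kpna2 was 0.22 higher in HET (SE 0.07; limma adjusted p = 0.310).

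Kpna3 (ENSMUSG00000021929, chr14:61365211-61439874, minus strand) and Kpna4 (ENSMUSG00000027782, chr3:69067149-69127113, minus strand) form a subfamily of importin α proteins. Kpna3 counts in WT were 5147, 5879 and 5498 at 12 h, 5674, 6540 and 4938 at 24 h and 4895, 4283 and 4321 at 48 h. Kpna3 fell from 24 to 48 h in WT by 0.34 (SE 0.12; limma adjusted p = 0.0412), without overlap. The call was lost without WT 24 h culture 1 or 2, WT 48 h culture 2 or 3, HET 12 h culture 5 or HET 24 h culture 2 (limma adjusted p up to 0.192). From 12 to 48 h in WT the value was -0.29 (limma adjusted p = 0.0502), and 8 of 18 fits without 1 culture passed the threshold, as did the fit with the number as a block (limma adjusted p = 0.0364). In HET, Kpna3 ran from 4880 to 5881 at 12 h, 4655 to 5599 at 24 h and 4269 to 5578 at 48 h, with overlap between all times. Kpna4 ranged from 4167 to 5796 in WT and 3487 to 5519 in HET, and no comparison of it passed the threshold. Its genotype differences were -0.24 at 12 h (95% interval -0.55 to 0.07), -0.07 at 24 h and -0.03 at 48 h (-0.34 to 0.28).

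Kpna1 (ENSMUSG00000022905, chr16:35978750-36037131, plus strand) and Kpna6 (ENSMUSG00000003731, chr4:129643980-129672767, minus strand) form another subfamily. Kpna6 counts in WT were 4258, 3589 and 3661 at 12 h, 4302, 3764 and 4165 at 24 h and 4835, 4881 and 4688 at 48 h. All WT cultures at 48 h lay above all earlier ones, and the rise from 12 to 48 h was 0.33 (SE 0.08), 1.26-fold (limma adjusted p = 0.00414). From 24 to 48 h it was 0.24 (SE 0.08; limma adjusted p = 0.0420), a call lost without WT 24 h culture 2 or 5, any WT 48 h culture, HET 12 h culture 5 or HET 24 h culture 2 (limma adjusted p up to 0.170), and with the number as a block (0.0584) or without the authors' last scaling (0.0838). In HET, Kpna6 ran from 4104 to 4297 at 12 h and from 4339 to 4867 at 48 h, a difference of 0.13 (SE 0.08; limma adjusted p = 0.277). Kpna1 was the most even member, between 6311 and 7335 in all 18 cultures. Its difference between genotypes at 48 h was 0.01 on the log2 scale (95% interval -0.13 to 0.14).

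Ran (ENSMUSG00000029430, chr5:129020069-129024323, plus strand), the GTPase itself, ran from 5195 to 6822 in WT and from 6068 to 7054 in HET. From 12 to 48 h in WT it differed by 0.17 (SE 0.08; limma adjusted p = 0.0805), past the threshold only without WT 12 h culture 2 (limma adjusted p = 0.0469). Genotype differences of Ran (SE 0.08) were 0.05 at 12 h, 0.12 at 24 h and -0.07 at 48 h. At 24 h its HET values of 6464, 6570 and 7054 lay above the WT values of 6275, 5855 and 6369. At 48 h the order was the other way, with 6515, 6437 and 6253 in HET and 6822, 6698 and 6684 in WT. The genotypes did not overlap for 5.6% of all genes at 24 h and 24% at 48 h.

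Rangap1 (ENSMUSG00000022391, chr15:81704248-81745530, minus strand), the activator of the Ran GTPase, had counts in WT of 15522, 15936 and 14847 at 12 h, 17226, 16185 and 17031 at 24 h and 16756, 17822 and 18169 at 48 h. It rose from 12 to 48 h in WT by 0.19 (SE 0.07; limma adjusted p = 0.0254). The call was lost without WT 12 h culture 5 or WT 48 h culture 2 or 3 (limma adjusted p up to 0.0855), and with the number as a block (0.161). On the deposited columns without the authors' last scaling, which lower the median of all genes in this comparison by 0.105, the value was 0.08 (limma adjusted p = 0.293). In HET, Rangap1 ran from 16318 to 16885 at 12 h and from 17135 to 17496 at 48 h, a difference of 0.06 (SE 0.07; limma adjusted p = 0.541).

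**Figure D3:**
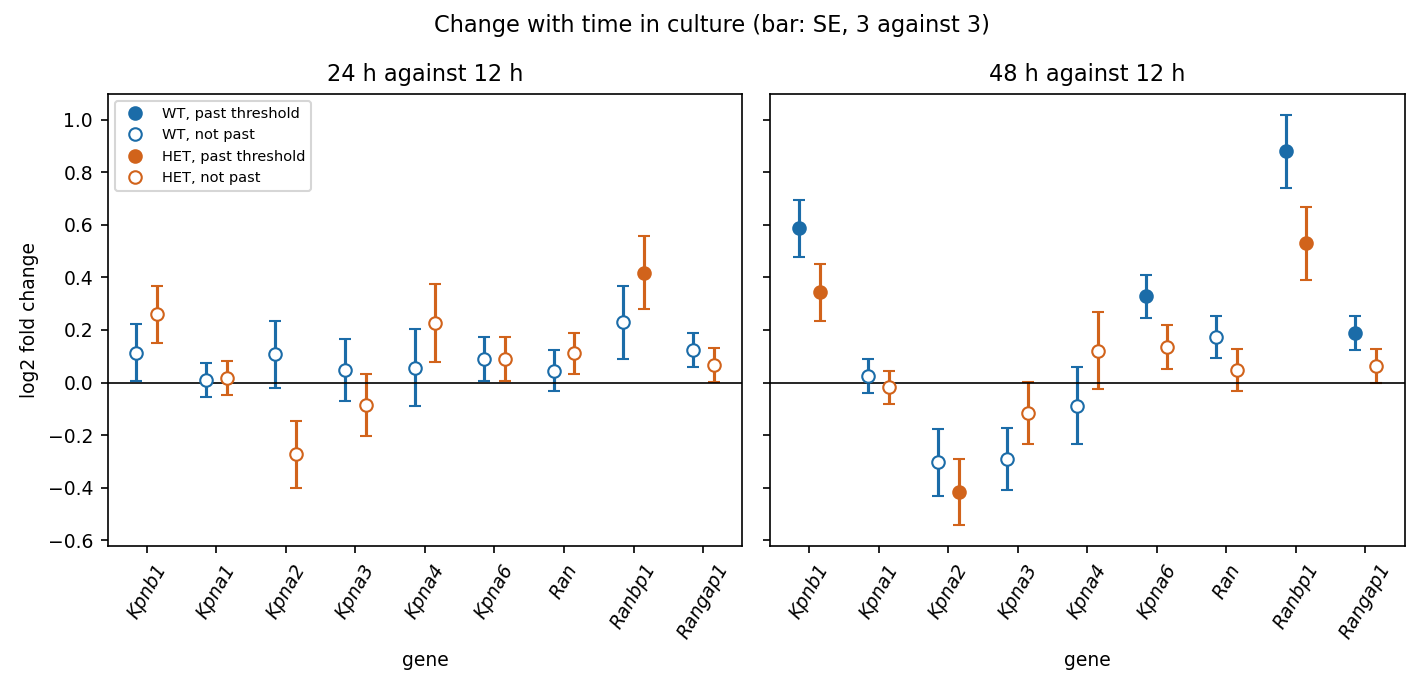
Log2 fold change of each member against 12 h, at 24 h on the left and 48 h on the right, with the SE as a bar, WT in blue and HET in orange; filled points passed the threshold. In WT at 48 h 4 members are filled, Kpnb1, Kpna6, Ranbp1 and Rangap1, and in HET at 48 h 3 are, Kpnb1, Kpna2 and Ranbp1.

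Counted over the members, 4 of 9 were higher and 0 lower at 48 than at 12 h in WT, where 47.1% of all genes passed the threshold, 30% as higher and 17.1% as lower. From 24 to 48 h in WT, 3 were higher and 2 lower, against 27.7% of all genes, 17.4% higher and 10.3% lower. In HET, 1 of 9 passed from 12 to 24 h, against 18.9% of all genes. Between 12 and 48 h in HET, 2 were higher and 1 lower, against 14.2% of all genes, 10.6% higher and 3.62% lower. No member passed from 12 to 24 h in WT, where 3.62% of all genes did, or from 24 to 48 h in HET, where 2.49% did, and at an unadjusted p under 0.05 in limma the count was 0 of 9 in each. The median log2 difference from 12 to 48 h was 0.17 over the members and 0.11 over all genes in WT, and 0.06 and 0.10 in HET. With so many genes changing over time, these counts do not set the members apart.

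Genotype comparisons passed for 0 of 9 members at each time and averaged over time (limma). In the same fit Dynlrb1, the targeted gene, was 0.582-fold in HET at 12 h (limma adjusted p = 0.0655). It was 0.550-fold at 24 h (limma adjusted p = 0.0390) and 0.557-fold at 48 h (0.0501). Of the single times Dynlrb1 thus passed only at 24 h, so a missing call does not show that a gene was unchanged. In the fit without the block, 0.00581% of all genes passed at 12 h, 0.00581% at 24 h, 0% at 48 h and 0.0174% averaged. At an unadjusted p under 0.05 the members counted 1 at 12 h, 0 at 24 h, 3 at 48 h and 1 averaged, against 1447, 198, 3782 and 2315 of all genes. The HET and WT values did not overlap for 2 members at 12 h (Kpna2 and Rangap1, both higher in HET), where 15.1% of all genes did not. At 24 h they did not overlap for 2 members (Kpna1 and Ran, higher in HET), against 5.6% of all genes. At 48 h they did not overlap for 3 (Kpnb1, Ranbp1 and Ran, lower in HET), against 24%. With the number as a block, 2 of 9 members passed at 48 h, both lower in HET, against 12.3% of all genes, 7.29% as lower. The median member difference at 48 h was -0.03 on the log2 scale, as it was over all genes. In the fit with the block, neither member passed without HET 48 h culture 3.

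**Figure D4:**
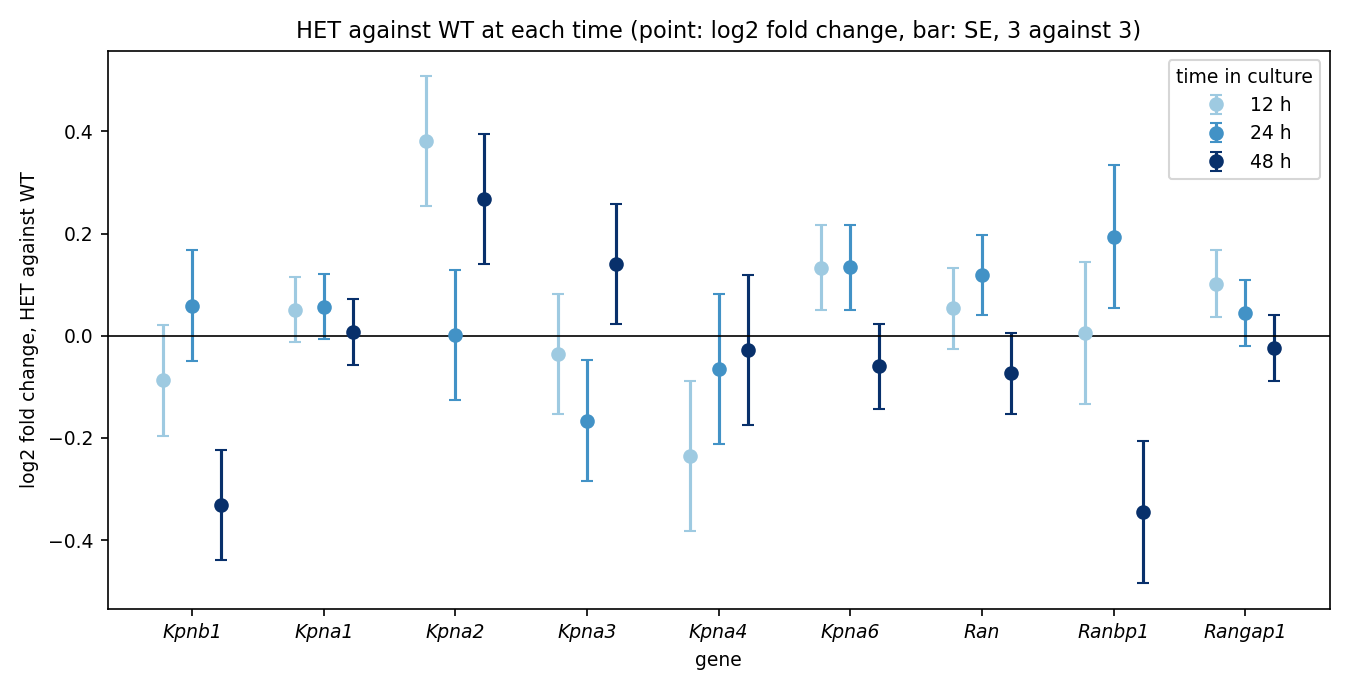
Log2 fold change of HET against WT for each member at 12, 24 and 48 h, with the SE as a bar, 3 cultures against 3. Kpnb1 and Ranbp1 are lowest at 48 h, at -0.33 and -0.35, and Kpna2 is highest at 12 h, at 0.38; no point passed the threshold.

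Whether the change over time differed between genotypes was tested directly as the HET change from 12 to 48 h minus the WT change. It was -0.35 for Ranbp1 (SE 0.20; limma adjusted p = 0.577) and -0.24 for Kpnb1 (SE 0.15; limma adjusted p = 0.601). No member passed, 0 of 9 had an unadjusted p under 0.05 in limma, and 0% of all genes passed. For Kpna2 it was -0.11, with a 95% interval of -0.49 to 0.26. The intervals reached -0.77 to 0.07 for Ranbp1 and -0.57 to 0.08 for Kpnb1, so sizeable differences in either gene's rise are within the error.

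The balance of importin β to importin α followed Kpnb1. The ratio of Kpnb1 FPKM to the summed FPKM of the 5 importin α genes was 0.427 ± 0.025 in WT at 12 h, 0.448 ± 0.052 at 24 h and 0.664 ± 0.048 at 48 h (SD, n = 3 each). In HET it was 0.404 ± 0.028, 0.472 ± 0.032 and 0.524 ± 0.11 (SD, n = 3 each). Over HET cultures 1, 2 and 3 at 48 h the ratio was 0.582, 0.595 and 0.396. The summed importin α level stayed between 122 and 130 FPKM as a mean of each group. These ratios were not tested apart from Kpnb1 itself.

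Of 22 other measured transport receptors and Ran regulators, 6 were higher and 0 lower at 48 than at 12 h in WT, where 30% of all genes were higher and 17.1% lower (median 0.11, and 0.11 over all genes). They included Xpo1, the main exporter of proteins, at 0.78 (SE 0.11), Xpo5 at 0.38, Ipo9 at 0.35 and Tnpo3 at 0.32. Cse1l, which returns importin α to the cytoplasm, rose by 0.30 (SE 0.08; limma adjusted p = 0.00407). In HET 2 rose from 12 to 48 h, Xpo1 by 0.50 and Xpo5 by 0.25, where 10.6% of all genes did. From 12 to 24 h in HET 6 rose and 0 fell, led by Xpo1 at 0.51 and Cse1l at 0.36, where 18.9% of all genes passed in either direction. From 24 to 48 h in WT 3 rose and 2 fell, against 17.4% and 10.3% of all genes, the latter being Rcc1, which loads Ran with GTP, and Xpot, the exporter of tRNA.

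Of 26 measured nucleoporins, the proteins of the nuclear pore, 14 were higher and 3 lower at 48 than at 12 h in WT, beside 30% and 17.1% of all genes, with a median of 0.40 against 0.11 over all genes. Nup93 rose by 1.04, Nup37 by 0.98, Nup43 by 0.89 and Aaas by 0.74, while Pom121 fell by 1.09, Nup98 by 0.34 and Nup153 by 0.25. In HET 9 rose and 0 fell from 12 to 48 h, beside 10.6% and 3.62% of all genes (median 0.25, all genes 0.10), among them Nup37 by 0.75, Nup43 by 0.62, Nup93 by 0.59 and Nup205 by 0.48. From 24 to 48 h in WT 9 rose and 2 fell, beside 17.4% and 10.3% of all genes. From 12 to 24 h 1 rose in WT and 5 in HET, where 3.62% and 18.9% of all genes passed in either direction. From 24 to 48 h in HET 1 fell, where 2.49% of all genes passed.

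Known partners of the injury signal include dynein subunits, MAP kinases and the transcription factors they reach. Of 18, 2 were higher and 7 lower at 48 than at 12 h in WT, beside 30% and 17.1% of all genes (median -0.16, all genes 0.11). Mapk10, a JNK kinase of neurons, fell by 0.79 (SE 0.11), Dctn1, the large dynactin subunit, by 0.63, Dync1i1, a dynein intermediate chain, by 0.62, and Jun by 0.62. Creb3, a transcription factor of the endoplasmic reticulum, rose by 0.76 and Mapk8 by 0.22. In HET 1 rose and 4 fell from 12 to 48 h, beside 10.6% and 3.62% of all genes: Creb3 by 0.39 up, and Dync1i1, Jun, Mapk10 and Dctn1 down, at -0.46, -0.44, -0.39 and -0.35. From 12 to 24 h 1 rose and 1 fell in WT, where 3.62% of all genes passed in either direction. In HET 1 rose and 5 fell, where 18.9% passed. From 24 to 48 h 6 fell in WT, where 10.3% of all genes were lower. In HET 1 fell, where 2.49% passed in either direction. In WT from 12 to 48 h, 6 of 10 sensory neuron markers were lower and 2 higher. Among all genes 17.1% were lower and 30% higher. The part of neuron number in the declines of the partners was not tested. None of the genes in these 3 lists passed between genotypes at any time, averaged, or in the test of the difference in change (limma). This holds for the main fit, which does not pair cultures of the same number. At 48 h 0% of all genes passed in it, and 12.3% with the number as a block. At 48 h an unadjusted p under 0.05 was reached by 3 of 22 receptors and regulators, 5 of 26 nucleoporins and 5 of 18 partners, beside 3782 of all 17198 genes.

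The members varied with one another over the 18 cultures, which share the times and genotypes, so these correlations only describe the set. Kpnb1 and Ranbp1 had r = 0.94, Kpna6 and Ranbp1 0.86, Kpna3 and Kpna4 0.67, Kpna2 and Kpnb1 -0.76, and Kpna3 and Kpna6 -0.81. Searching 12468 genes whose mean count was at least 100, the patterns most like Kpnb1 were those of Rrm1 (r = 0.984), Ikbip (0.983) and Pmp2 (0.982), over 18 cultures. For Ranbp1 they included Rps3 (0.985) and Rplp0 (0.980). Kpna2 was nearest to Hbs1l (0.908), Fam179b (0.883) and Ppp2r2d (0.882). Kpna3 was nearest to Pik3cb (0.939), Fam13c (0.931) and Arhgap17 (0.930), and Kpna4 to Eif5b (0.961), Eif3b (0.931) and Prpf3 (0.923). For Kpna6 the nearest were Snrnp27 (0.935), Pgrmc2 (0.934) and Tmem258 (0.926), and for Ran they were Ntmt1 (0.936), Ppid (0.933) and Tmem222 (0.910). Rangap1 was nearest to Zfpl1 (0.962), Txnl4a (0.953) and Gnb2 (0.948). Kpna1, with the least variation, had no gene above r = 0.720, reached with Cept1, followed by Abt1 (0.684) and Atg4b (0.680).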

How the data were processed

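RNA-seq values came from a single deposited gene table. The submitters' processing notes name CASAVA 1.8.2, edgeR and the mouse build mm10; how reads were counted is not given in the sources used here. Per the file headers, the authors' normalized counts, a signal with no whole numbers, are the values tested, and the plain adjusted columns, a signal per sample without that last scaling, are an alternative. The authors' deposited FPKM values served to compare levels between genes. The authors' deposited log2 fold changes, p-values and adjusted p-values were not tested further, and 24 other per-sample columns were not used.

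Log2(normalized count + 1) was fitted with limma 3.58.1 (R 4.3.3) over all 18 samples, with 1 coefficient per group and a mean-variance trend, because the values were not counts. P-values were adjusted by Benjamini-Hochberg over 17198 genes in each of 11 comparisons, with a threshold of 0.05. A filter on a mean of at least 1 removed 0 genes. The scale understates changes of low genes, and p-values measure the spread between these samples. The deposited values lack 2 of 17 possible directions among samples, so the fit counts more residual degrees of freedom (12) than they hold.

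Replicate numbers come from the sample titles (1, 2 and 5 at 12 and 24 h, 1, 2 and 3 at 48 h). Deviations from group means correlated between same-numbered HET and WT samples, over 12477 genes, at 0.316, 0.175 and 0.358 at 12 h, 0.147, -0.213 and 0.576 at 24 h, and 0.444, 0.476 and 0.54 at 48 h. The numbers were taken to pair HET with WT samples at 12 and 48 h. In time comparisons the block joined samples of 1 genotype and number. Their deviations correlated between 12 and 48 h at 0.106 and -0.093 in WT and 0.204 and -0.0673 in HET. Between 24 and 48 h the values were 0.125 and -0.0632 in WT and 0.269 and -0.0463 in HET. From 12 to 24 h they ran from -0.0783 to 0.422 in WT and from 0.281 to 0.583 in HET. Numbers 3 and 5 were not shared between 48 h and the earlier times. The scripts were tested on simulated data.

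The members and gene lists were chosen with earlier results of these data known. Named genes are the 9 members, Dynlrb1, up to 4 genes a direction from each list among those past the threshold, and the 3 genes most like each member, of which 1 is not reported here. Coding stretches and promoter windows were read with Python 3.11.15.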

Additional observations from a re-analysis of the deposited data

Results flagged for a closer look

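In 6 cases all 3 samples of a group lay on one side of the mean of their comparison group, while in the second contrast all 3 lay on the opposite side of theirs. The samples of the groups compared could still overlap. Values are mean log2 differences from the mean of the comparison group, and the differences listed were not tested unless a p is given. For Kpna2, the change from 12 to 24 h was 0.106 in WT and -0.274 in HET, a difference of -0.38. For Ran, the change from 24 to 48 h was 0.127 in WT and -0.0651 in HET, a difference of -0.192. Its HET values lay above WT at 24 h and below at 48 h, which moved the genotype difference from 0.118 to -0.0734, by -0.191. From 12 to 48 h the Ran genotype difference went from 0.0469 to -0.0734, by -0.12; the test of the difference in change gave a limma adjusted p of 0.696. For Rangap1 it went from 0.101 at 12 h to -0.0247 at 48 h, by -0.126, with a limma adjusted p of 0.647 for the difference in change. Kpna1 changed from 24 to 48 h by 0.0149 in WT and -0.0348 in HET, a difference of -0.0497.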

How the results depend on the processing

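With HET 48 h replicate 1 left out, Kpnb1 from 24 to 48 h in HET turned from 0.083 to -0.0044 on the log2 scale, and without replicate 3 it was 0.245, all short of the threshold. With the replicate number as a block, alone or with the missing directions as covariates, the members past the threshold were 2 in place of 0 between genotypes at 48 h, 2 in place of 1 from 12 to 24 h in HET and 1 in place of 0 from 24 to 48 h in HET. The block alone moved no other count of members by over 1.5 times, but it lost Rangap1 and gained Kpna3 for 48 against 12 h in WT and lost Kpna6 for 48 against 24 h in WT. With the missing directions as well, 0 members passed for 48 against 24 h in WT, in place of 5; samples of different times share a number only. In an alternative added after the data were seen, the block without HET 48 h replicate 3, the counts were 2 from 12 to 24 h and 1 from 24 to 48 h in HET. Quantile normalization and a fit with no mean-variance trend each left 0 from 12 to 24 h in HET, and no trend left 3 from 24 to 48 h in WT. Fitting only the samples compared left 0 from 12 to 48 h in HET, in place of 3. Leaving out 1 replicate at a time gave 3 to 6 members for 48 against 12 h in WT, 2 to 5 for 48 against 24 h in WT, 0 to 2 for 24 against 12 h in HET, 0 to 3 for 48 against 12 h in HET and 0 to 2 between genotypes at 48 h. The cause was not tested. Other settings kept the direction and the side of the threshold in 499 of the single-gene values, lost the call in 77 and gained it in 32. Kpna6, Kpnb1 and Ranbp1 for 48 against 12 h in WT passed in every fit that left out 1 replicate. The depth of the libraries is unknown, and with 3 samples a group small differences could not be resolved.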
